A study of Mus musculus with 9 samples.

Results

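The genes described here present antigen on major histocompatibility complex (MHC) class II molecules, the surface proteins that show peptides of ingested proteins to helper T cells. They were followed in RNA sequencing of cells rinsed from the peritoneal cavity of mice. A list of 10 names was matched to the gene names of the deposited table, and 8 of the 10 had a row of that name among 41096 genes: H2-Aa, H2-Ab1, H2-Eb1, Cd74, H2-DMa, H2-Oa, H2-Ob and Ciita. No row is named H2-DMb1 or H2-DMb2. All 8 reached an FPKM of 1 in 4 or more samples, so all 8 were among the 11193 genes tested. FPKM counts fragments relative to gene length and to a scaling factor of each library, so levels can be set side by side between genes.

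All 9 samples came from APOE-/- mice, which lack apolipoprotein E and develop atherosclerosis. Streptozotocin, a toxin of insulin-producing beta cells, was given to the diabetic mice on 5 consecutive days (40 mg/kg each), starting when they were 8 weeks old (4 samples), and the nondiabetic control mice received citrate buffer instead (5 samples). Both groups then ate western diet for 8 weeks, and 3 days before collection the cavity was injected with thioglycollate (1.5 mL at 3%), an irritant that recruits leukocytes. No wild-type mice and no mice without the irritant were in the samples analysed here. The labels call the cells peritoneal macrophages and describe no sorting, and they do not say whether a sample was 1 mouse or a pool. The p-values below therefore measure the spread between these samples.

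A class II molecule is a pair of an alpha and a beta chain that is built in the endoplasmic reticulum around the invariant chain, the product of Cd74. In the endosome the invariant chain is cut down to a short peptide, which the H2-DM heterodimer exchanges for peptides of digested proteins. H2-O, a second heterodimer found mainly in B cells and some dendritic cells, binds H2-DM and restrains that exchange. Ciita, the class II transactivator, does not bind DNA itself and is recruited to the X and Y boxes of class II promoters, where the RFX and NF-Y complexes sit. Macrophages, dendritic cells and B cells can all carry class II molecules.

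The exudate was a mixture. Libraries held 14156421 to 16169060 reads in genes. The 11 macrophage markers found summed to 2168 to 2845 FPKM in control and 1687 to 2860 in diabetic samples, and 0 of 10 tested passed in either direction. Of those 10, 9 had negative log2 fold changes, with a median of -0.22. Of 19 tested T cell markers 18 rose, and their summed level went from 67.4 to 109 FPKM in control to 187 to 671 in diabetic samples. Of 19 tested B cell markers 5 rose and 0 fell, with sums of 1316 to 2571 FPKM in control and 1896 to 3960 in diabetic samples. Over all tested genes, 2.68% were higher and 2.08% lower. Dendritic cell markers were mixed: of 11 tested, Ccr7, Kmo and Dpp4 rose and Batf3 fell, while Zbtb46, Xcr1, Clec9a, Siglech and Itgae stayed under the filter on low values. Which cells of the mixture held the RNA of Ccr7, Kmo and Dpp4 was not tested. In bulk RNA, more cells of a type and more RNA per cell cannot be told apart. Across the samples, diabetic 3 lay nearest to the control samples, with the lowest sum of both lymphocyte lists in its group.

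Upstream sequence from RefSeq (GRCm38.p6) was used for 5 of the 8 genes, H2-Aa, H2-Eb1, H2-DMa, H2-Oa and H2-Ob, and also for H2-DMb1, H2-DMb2 and H2-Eb2, a neighbouring beta chain gene outside the list of 10. The 250 bases upstream of each start were searched on both strands for GCAAC, the core letters of an X box, followed after 20 to 35 bases by ATTGG, the letters of a Y box. The pair was found in H2-Aa, H2-Eb1, H2-Oa, H2-Ob and H2-Eb2, and in 0.673% of all 32851 promoters of that length. GCAAC alone was in 29.9% and ATTGG alone in 33.8% of them. The pair lies in the same orientation in all 5, with 25 to 28 bases between GCAAC and ATTGG. The 150 bases before the start are shown 5′ to 3′ with the letters of the pair in capitals, since they let the genes that differed between groups (H2-Oa and H2-Eb2), the gene just short of the threshold (H2-Ob) and those that did not pass (H2-Aa and H2-Eb1) be compared.
H2-Aa (chr17:34287824-34287973, minus strand): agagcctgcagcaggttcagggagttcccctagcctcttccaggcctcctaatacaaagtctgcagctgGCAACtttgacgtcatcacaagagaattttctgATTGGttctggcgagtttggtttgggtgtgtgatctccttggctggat
H2-Eb1 (chr17:34305717-34305866, plus strand): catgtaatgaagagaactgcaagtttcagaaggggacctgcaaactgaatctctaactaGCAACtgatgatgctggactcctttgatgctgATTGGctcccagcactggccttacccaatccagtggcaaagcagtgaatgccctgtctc
H2-Oa (chr17:34092229-34092378, plus strand): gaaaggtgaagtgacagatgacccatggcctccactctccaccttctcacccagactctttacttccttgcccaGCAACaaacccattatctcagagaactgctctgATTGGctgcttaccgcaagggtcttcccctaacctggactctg
H2-Ob (chr17:34238755-34238904, plus strand): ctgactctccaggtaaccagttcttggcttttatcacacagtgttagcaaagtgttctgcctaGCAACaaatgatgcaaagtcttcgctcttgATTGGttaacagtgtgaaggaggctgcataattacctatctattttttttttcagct
H2-Eb2 (chr17:34325525-34325674, plus strand): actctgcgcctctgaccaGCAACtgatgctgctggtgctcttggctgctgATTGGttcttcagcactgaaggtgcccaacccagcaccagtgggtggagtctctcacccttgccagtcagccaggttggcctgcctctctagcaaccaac
The pair was thus present both in genes that rose and in genes that did not pass. A match is a description of letters and not of a bound site. The 2 starts listed for H2-DMa did not hold the pair in this window, nor did those of H2-DMb1 and H2-DMb2. The search took exact letters only, so variants of either box would be missed. In the GENCODE M21 annotation H2-DMa spans 19561 bases, while its row here runs from 35416095 to 35420014. The starts searched for H2-DMa may thus not be the start of that row. Whether these genes carry the pair in another form or place was not tested.

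Class II RNA was abundant in both groups. Cd74 ranked 8th of 41096 genes by mean FPKM, H2-Eb1 ranked 37th, H2-Aa 42nd and H2-Ab1 46th. Together these 4 genes made up 1.33 to 2.08% of the summed FPKM in control samples and 1.65 to 2.11% in diabetic samples. Below them came H2-DMa, then H2-Ob, H2-Oa and Ciita. Each gene in this order stood above the next in 9 of 9 samples, also where mean levels were close, as for H2-Aa and H2-Ab1 in control samples (1.05 times) and H2-Eb1 and H2-Aa (1.19 times).

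Of the 8 genes, 1 rose and 0 fell in diabetic samples by limma at an adjusted p below 0.05. The gene that rose was H2-Oa. Over all tested genes 4.76% passed, 2.68% higher and 2.08% lower. The median log2 fold change of the 8 genes was 0.12, against -0.013 over all genes, and the median size without its sign was 0.15, against 0.17. With FPKM rescaled to the same total in every sample, the split over all genes was 259 higher and 302 lower, against 300 and 233 as deposited, and H2-Oa still rose.

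**Figure D1:**
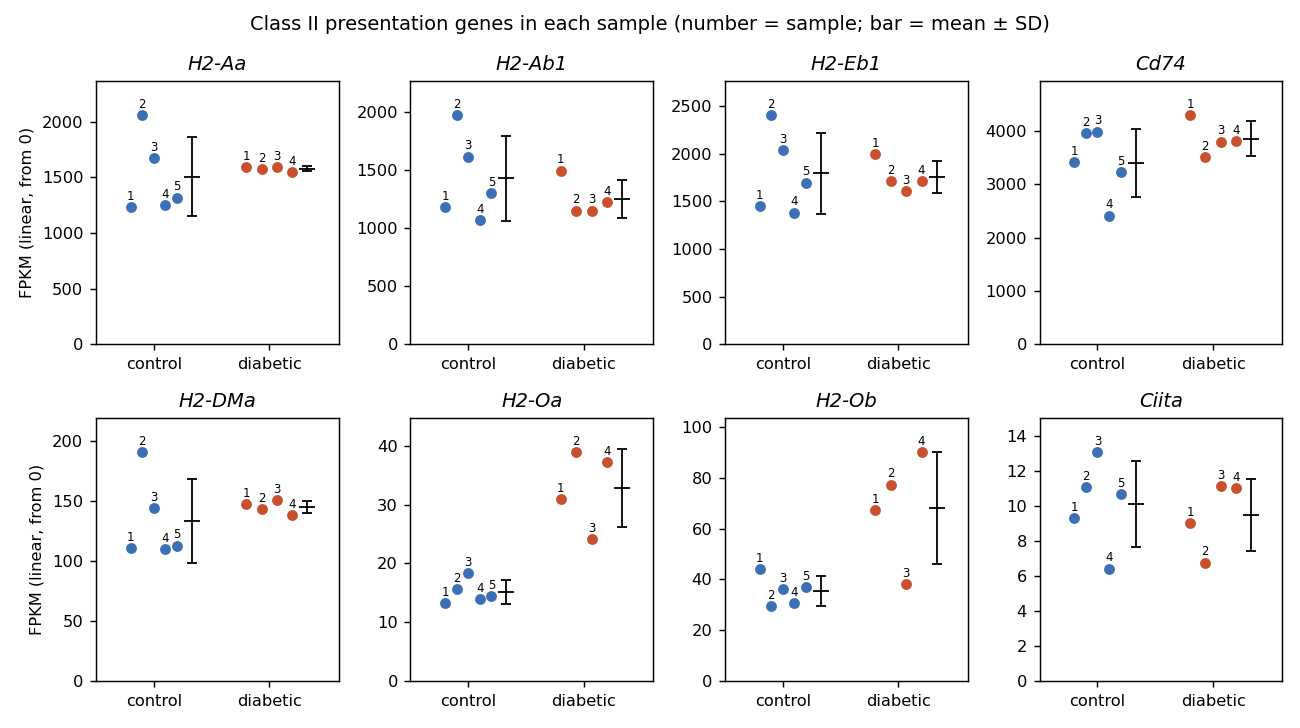
FPKM of the 8 genes (vertical axis, linear from 0) in 5 control samples (blue) and 4 diabetic samples (orange), each point numbered by its sample, with mean ± SD beside it. The groups overlap for 7 genes, and the 4 diabetic values of H2-Oa (24.1 to 38.9) all lie above the 5 control values (13.2 to 18.3).

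The classical chains came first. H2-Aa, the alpha chain of the I-A molecule (identifier MGP_C57BL6NJ_G0023974; chromosome 17, 35575840 to 35580923 in the table's positions), stood at 1232, 2059, 1671, 1253 and 1319 FPKM in control 1 to 5. In diabetic 1 to 4 it stood at 1594, 1575, 1595 and 1549 FPKM. The diabetic values all fell inside the control range, and they were close together, with an SD of 21.4 FPKM against 356 in control samples. The log2 fold change was 0.10 (SE 0.16, 95% interval -0.26 to 0.45, adjusted p = 0.77).

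H2-Ab1, the beta chain that pairs with it (MGP_C57BL6NJ_G0023973; chromosome 17, 35554880 to 35562569), had 1185, 1975, 1619, 1073 and 1301 FPKM in control 1 to 5. Diabetic 1 to 4 had 1498, 1152, 1154 and 1224 FPKM, again inside the control range. Control 2 and control 3 were the highest control samples for both chains. H2-Ab1 gave a log2 fold change of -0.16 (SE 0.18, 95% interval -0.56 to 0.25, adjusted p = 0.65).

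H2-Eb1, a beta chain of the I-E molecule (MGP_C57BL6NJ_G0023975; chromosome 17, 35598911 to 35610672), had 1448, 2405, 2036, 1383 and 1698 FPKM in control 1 to 5 and 1999, 1713, 1608 and 1715 FPKM in diabetic 1 to 4. Its log2 fold change was -0.0020 (SE 0.17, 95% interval -0.38 to 0.38, adjusted p = 0.996). In C57BL/6 mice the gene of the alpha partner of this chain is disrupted, and the chain has no partner at the surface. The labels name no strain, but the gene identifiers are those of C57BL/6NJ. The row on chromosome 17 whose description matches an H-2 E alpha chain is annotated as a pseudogene and held 15 reads over all 9 samples. H2-Eb1 RNA was thus measured at a higher FPKM than that of both I-A chains, with almost no reads of an E alpha chain.

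Cd74, the invariant chain (MGP_C57BL6NJ_G0024881; chromosome 18, 62262211 to 62303090), was the most abundant of the 8. Control 1 to 5 had 3410, 3953, 3987, 2410 and 3219 FPKM, and diabetic 1 to 4 had 4290, 3509, 3797 and 3811 FPKM. Diabetic 1 was above every control sample, and the other diabetic samples lay within the control range. For Cd74 the log2 fold change was 0.20 (SE 0.16, 95% interval -0.16 to 0.56, adjusted p = 0.50).

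The 20 alternative fits include rescaling by median ratio, which is void as a check. These 4 genes did not pass in any of the fits (smallest adjusted p = 0.29, for Cd74 with array weights). Their intervals on the log2 scale still allow a change of up to 1.47-fold upward for Cd74 and down to 0.676-fold for H2-Ab1, so equality of the groups was not shown.

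**Figure D2:**
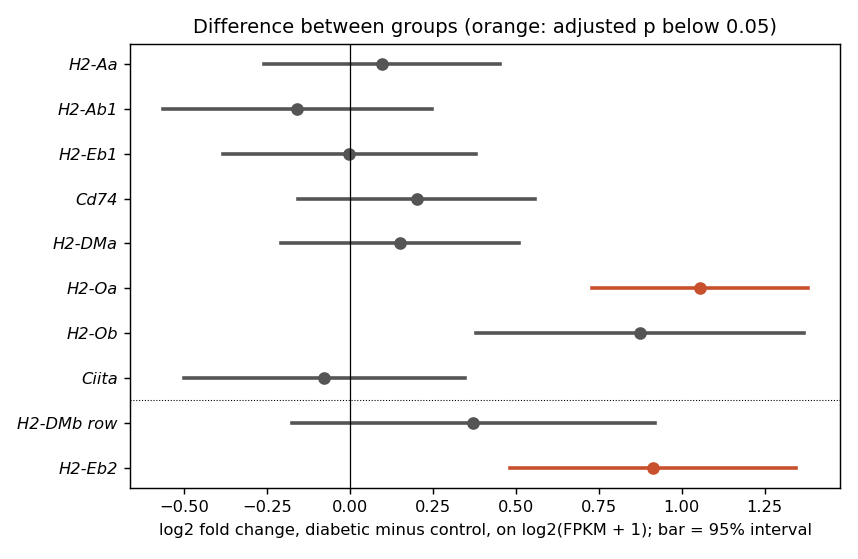
Log2 fold change of diabetic minus control on log2(FPKM + 1), with 95% intervals (horizontal bars), for the 8 genes and, under the dotted line, the H2-DMb row and H2-Eb2. The points of H2-Oa (1.06) and H2-Eb2 (0.91) are the orange ones, with intervals of 0.73 to 1.38 and 0.48 to 1.34.

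H2-DM was represented by H2-DMa, its alpha chain (MGP_C57BL6NJ_G0023965; chromosome 17, 35416095 to 35420014). It had 111, 191, 144, 110 and 113 FPKM in control 1 to 5 and 148, 143, 151 and 139 FPKM in diabetic 1 to 4. Control 2 stood highest, control 3 lay among the diabetic samples, and the other 3 control samples lay below all of them. The log2 fold change was 0.15 (SE 0.16, 95% interval -0.21 to 0.51, adjusted p = 0.63).

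The beta chain of H2-DM is encoded by H2-DMb1 and H2-DMb2, close copies that lie side by side. The table holds 1 row without a gene name at this place (MGP_C57BL6NJ_G0023966; chromosome 17, 35424220 to 35441711), whose description matches H2-DMb1 in UniProt. It spans 17492 bases but carries a gene length of 412 bases. It starts 4206 bases after the end of H2-DMa, the same distance at which H2-DMb2 starts in GENCODE M21, where both copies together span 16924 bases. The row may hold reads of either copy, and its FPKM cannot be ranked against the other genes because its length is that of a short part of the span. It had 164, 103, 159, 80.7 and 142 FPKM in control 1 to 5 and 173, 176, 108 and 212 FPKM in diabetic 1 to 4. The log2 fold change was 0.37 (SE 0.25, 95% interval -0.18 to 0.92, adjusted p = 0.41). The H2-DMb row did not follow H2-DMa from sample to sample: control 2 was the highest control sample of H2-DMa and the second lowest of this row. The Pearson correlation of their deviations from the group means was -0.17. For this row it was 0.86 with H2-Ob, 0.57 with H2-Oa and 0.45 with Cd74, given as a description.

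Of the H2-O heterodimer, the alpha chain rose and the beta chain just missed the threshold. H2-Oa, the alpha chain of this inhibitor of H2-DM (MGP_C57BL6NJ_G0023963; chromosome 17, 35368377 to 35371271), had 13.2, 15.6, 18.3, 13.9 and 14.5 FPKM in control 1 to 5. Diabetic 1 to 4 had 31.0, 38.9, 24.1 and 37.2 FPKM. The groups did not overlap. Over all tested genes, 4.82% had every diabetic sample above every control sample. The mean rose from 15.1 ± 2.0 FPKM (SD, n = 5) to 32.8 ± 6.72 (SD, n = 4), and the log2 fold change was 1.06 (SE 0.15, 95% interval 0.73 to 1.38, adjusted p = 0.0055). It passed in 9 of 9 fits that left out 1 sample (adjusted p = 0.00047 to 0.024). The gene rests on 257 to 763 reads per sample. An antisense row, BC051537, overlaps it at 0 to 0.231 FPKM.

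H2-Ob, the beta chain of H2-O (MGP_C57BL6NJ_G0023972; chromosome 17, 35528840 to 35535828), had 44.0, 29.5, 36.3, 30.6 and 37.1 FPKM in control 1 to 5 and 67.5, 77.4, 38.3 and 90.2 FPKM in diabetic 1 to 4. Diabetic 1, 2 and 4 lay above every control sample, and diabetic 3 lay inside the control range, below control 1. The means were 35.5 ± 5.81 FPKM (SD, n = 5) and 68.3 ± 22.1 (SD, n = 4). The log2 fold change was 0.87 (SE 0.22, 95% interval 0.38 to 1.37), and the gene just missed the threshold (adjusted p = 0.053). Without diabetic 3 it passed (log2 fold change 1.13, adjusted p = 0.0016). Without any 1 of the other 8 samples it did not, with adjusted p of up to 0.15.

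Within single samples the ratio of H2-DMa to H2-Oa was lower in diabetic than in control samples. The FPKM of H2-DMa was 8.37, 12.3, 7.86, 7.90 and 7.82 times that of H2-Oa in control 1 to 5 and 4.77, 3.68, 6.24 and 3.72 times in diabetic 1 to 4. The H2-DMa to H2-Oa ratio did not overlap between the groups, and diabetic 3 lay nearest to the control samples. The ratio of the H2-DMb row to H2-Ob overlapped, at 2.64 to 4.38 in control and 2.27 to 2.82 in diabetic samples. The ratio of H2-Ob to H2-Oa, chosen after its values were seen, overlapped, at 1.89 to 3.32 in control and 1.58 to 2.42 in diabetic samples. A ratio of 2 genes shows unequal change and not which of them changed. Taken singly by limma, H2-Oa rose (adjusted p = 0.0055) and H2-DMa did not pass (adjusted p = 0.63). The H2-DMa to H2-Oa ratio is therefore no result separate from that of H2-Oa.

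The classical chains kept tight ratios to each other within control samples. H2-Eb1 stood at 1.22 to 1.31 times H2-Ab1 in control samples and at 1.33 to 1.49 times in diabetic samples, so the ranges of this ratio did not overlap. H2-Aa stood at 1.01 to 1.17 times H2-Ab1 in control samples and at 1.06, 1.37, 1.38 and 1.27 times in diabetic 1 to 4. Cd74 stood at 2.0 to 2.88 times H2-Ab1 in control samples and at 2.86 to 3.29 times in diabetic samples. The mean of each of these 3 ratios was higher in diabetic samples, but the ranges overlapped for H2-Aa and Cd74. The gap for H2-Eb1 was narrow, from 1.31 in control to 1.33 in diabetic samples, and neither H2-Eb1 nor H2-Ab1 passed alone. The ratios of Cd74 and of H2-Ab1 to Ciita, also computed, overlapped between the groups. How often the ratio of other gene pairs separates the groups was not computed. These ratios are given as descriptions, with no test.

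**Figure D3:**
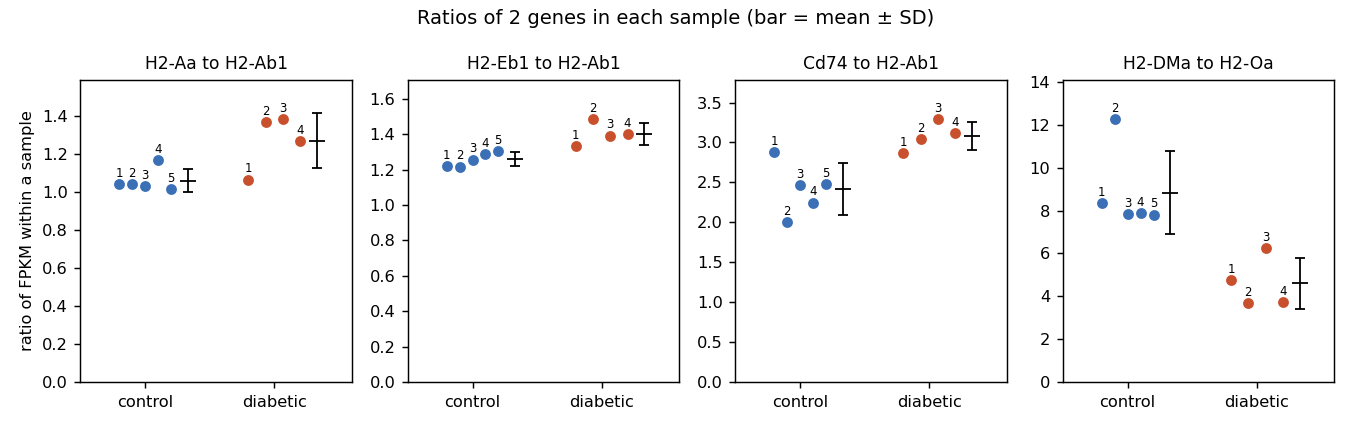
Ratio of the FPKM of 2 genes within a sample (vertical axes, linear from 0) in control samples (blue) and diabetic samples (orange), numbered by sample, with mean ± SD. The H2-Eb1 to H2-Ab1 and H2-DMa to H2-Oa ratios do not overlap between the groups, and those of H2-Aa and Cd74 to H2-Ab1 do. How often other gene pairs separate the groups was not computed.

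Ciita, the transactivator (MGP_C57BL6NJ_G0022923; chromosome 16, 7434832 to 7487394), was the lowest of the 8. It had 9.31, 11.1, 13.1, 6.42 and 10.7 FPKM in control 1 to 5 and 9.01, 6.77, 11.1 and 11.0 FPKM in diabetic 1 to 4. The groups overlapped, and the SD was 24.4% of the mean in control and 21.7% in diabetic samples. The log2 fold change was -0.077 (SE 0.19, 95% interval -0.50 to 0.35, adjusted p = 0.85). Ciita overlaps Dexi, a gene on the other strand at 3.44 to 5.79 FPKM, and without a stated strand setting reads where they overlap cannot be told apart.

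Upstream of Ciita, interferon gamma signalling raises the transcription factor IRF1. Of 12 tested genes of that pathway 2 rose and 0 fell, with a median log2 fold change of 0.13. Over all tested genes, 2.68% were higher and 2.08% lower. Irf1, a transcription factor that activates the Ciita promoter, rose: its control mean was 19.5 ± 1.34 FPKM (SD, n = 5) and its diabetic mean 34.3 ± 4.46 (SD, n = 4). This is a log2 fold change of 0.77 with an SE of 0.11 (adjusted p = 0.0055). Ifng and Il10 stayed under the filter on low values. Irf1 was thus higher, while Ciita itself and the classical chains did not pass.

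The factors that bind class II promoters were measured as well. Of 15 tested genes of this list 0 passed in either direction, with a median log2 fold change of 0.13, and 2 named by their small p were Irf8 (log2 fold change 0.35, SE 0.099, adjusted p = 0.073) and Nfyc (0.37, SE 0.11, adjusted p = 0.088). Irf8 drives dendritic and B cell programmes, and Nfyc is a subunit of the NF-Y complex that binds Y boxes. The RFX subunits Rfx5, Rfxap and Rfxank, named after their values were seen, had log2 fold changes of 0.13, 0.046 and 0.13.

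Genes that prepare antigen for class II showed no change that passed. All 18 of this list were tested and 0 passed; 16 of the 18 had negative log2 fold changes, with a median of -0.16. The 2 with the smallest p were Marchf8, a ubiquitin ligase that removes class II from the surface (7.0 ± 1.06 in control and 4.93 ± 0.867 in diabetic samples, a log2 fold change of -0.44 with adjusted p = 0.083), and Rab7, a small GTPase of late endosomes (92.4 ± 11.0 in control and 70.6 ± 10.5 in diabetic samples, a log2 fold change of -0.39 with adjusted p = 0.10). Ctss, the protease that finishes the cutting of the invariant chain, stood at 3454 FPKM in control and 3426 FPKM in diabetic samples (adjusted p = 0.96), and was picked with these values in view.

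Among 6 partners of the invariant chain at the surface, where CD74 binds the cytokine MIF, 0 passed, with a median log2 fold change of -0.17. Those of Mif, Ddt, Cd44 and Cxcr2, given with their values known, were -0.29, -0.13, -0.20 and -0.42. Cxcr4 had means of 99.6 ± 22.1 and 147 ± 29.4 FPKM, with a log2 fold change of 0.57 (adjusted p = 0.10), and Ackr3 had 1.99 ± 0.947 against 3.13 ± 0.979 FPKM (adjusted p = 0.33). Of 13 tested genes that signal beside class II at the contact with T cells, 4 rose and 0 fell. They were Icosl, Cd4, Cd28 and Icos. Over all tested genes, 2.68% were higher and 2.08% lower. Icosl, a ligand on antigen-presenting cells, had means of 9.96 ± 1.95 and 19.9 ± 4.25 FPKM, a log2 fold change of 0.92 (adjusted p = 0.018), and the other three are receptors of T cells, whose markers rose in the same samples. Cd4, the co-receptor that binds class II, had means of 1.62 ± 0.266 and 7.10 ± 2.93 FPKM, a log2 fold change of 1.55 (adjusted p = 0.010). What part T cells had in these rises was not tested.

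Of the 8 genes, 6 lie in 1 stretch of chromosome 17 that runs over 266 kb from H2-Oa to H2-Eb2. The stretch was set after the values were seen. It holds 18 rows, of which 16 were tested, and 4 rose and 0 fell: H2-Oa, Tap1, Gm20506 and H2-Eb2. Over all tested genes, 2.68% were higher and 2.08% lower. H2-Oa and H2-Eb2 set the ends of the stretch, so this count is no measure of the region. H2-Eb2, a beta chain gene similar in sequence to H2-Eb1, had 5.6, 3.04, 6.34, 3.93 and 6.04 FPKM in control 1 to 5 and 10.0, 10.6, 7.47 and 12.4 FPKM in diabetic 1 to 4. Its log2 fold change was 0.91 with an SE of 0.20 (adjusted p = 0.027). Its groups did not overlap, and it passed in 5 of 9 fits that left out 1 sample (adjusted p = 0.011 to 0.088). H2-Eb1 and H2-Eb2 are close copies, so the value of H2-Eb2 is uncertain where the counting could split reads between them. This was not tested. Tap1, which carries peptides to class I molecules, rose from 27.3 ± 1.42 to 43.2 ± 7.26 FPKM (adjusted p = 0.019). Gm20506, a noncoding row after H2-Ob, had 2.72 against 6.68 FPKM (adjusted p = 0.043). H2-Oa and H2-Eb2 are the ends of the stretch as it was set, and H2-Ab1, H2-Aa and H2-Eb1, which did not pass, lie between Gm20506 and H2-Eb2. From the fixed list of the region, which reaches further, 2 of 11 tested genes rose (Tap1 and H2-Eb2) and Slc39a7, a zinc transporter, fell (log2 fold change -0.82, SE 0.18, adjusted p = 0.031).

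**Figure D4:**
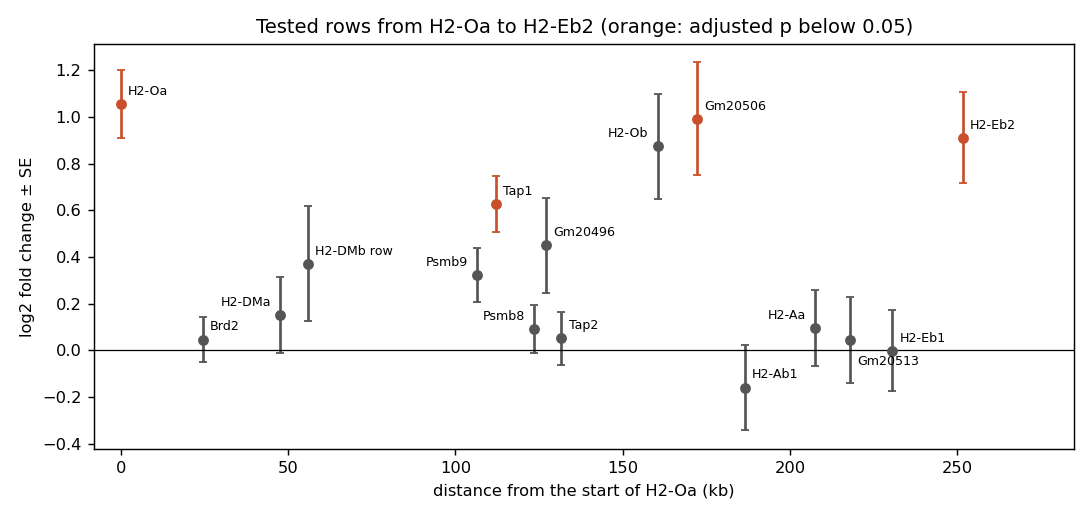
Log2 fold change ± SE (vertical axis) of the 16 tested rows against the distance of their start from that of H2-Oa in kilobases (horizontal axis). Orange points passed at an adjusted p below 0.05: H2-Oa at 1.06, Tap1 at 0.63, Gm20506 at 0.99 and H2-Eb2 at 0.91, while H2-Ab1, H2-Aa and H2-Eb1 lie near 0.

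Markers of the cells that carry class II moved unequally. H2-O is known from B cells, so the B cell list is given beside H2-Oa and H2-Ob. The members of this list that rose were Fcmr, Vpreb3, Ighd, Fcer2a and Pou2af1. Ighd, which encodes the IgD heavy chain, averaged 35.6 ± 9.98 FPKM in control and 221 ± 103 in diabetic samples (adjusted p = 0.011), and Fcer2a, the IgE receptor of follicular B cells, had 3.85 ± 1.02 against 24.2 ± 12.6 FPKM (adjusted p = 0.013). The general B cell genes Cd79a and Ms4a1, chosen after their values were seen, did not pass (log2 fold changes 0.47 and 0.31; adjusted p = 0.42 and 0.64). All 20 B cell markers were detected, and only Cr2 was under the filter.

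Sample by sample, H2-Oa in diabetic 1 to 4 stood 1.0, 1.32, 0.65 and 1.26 above its control mean on the log2(FPKM + 1) scale, and H2-Ob stood 0.92, 1.12, 0.12 and 1.34 above. Cd79a in the same samples stood at 0.64, 0.66, -0.34 and 0.92. In diabetic 3, Cd79a lay below its control mean, while the mean of the B cell list, H2-Oa and H2-Eb2 (0.54) lay above theirs. In that sample Ighd stood 1.20 and Fcer2a 1.0 above their control means. Control 2 had the lowest Cd79a (-0.79) and Ms4a1 (-1.09), and also the highest H2-Aa, H2-Ab1 and H2-Eb1. The part that cell numbers have in any of these differences was not tested.

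**Figure D5:**
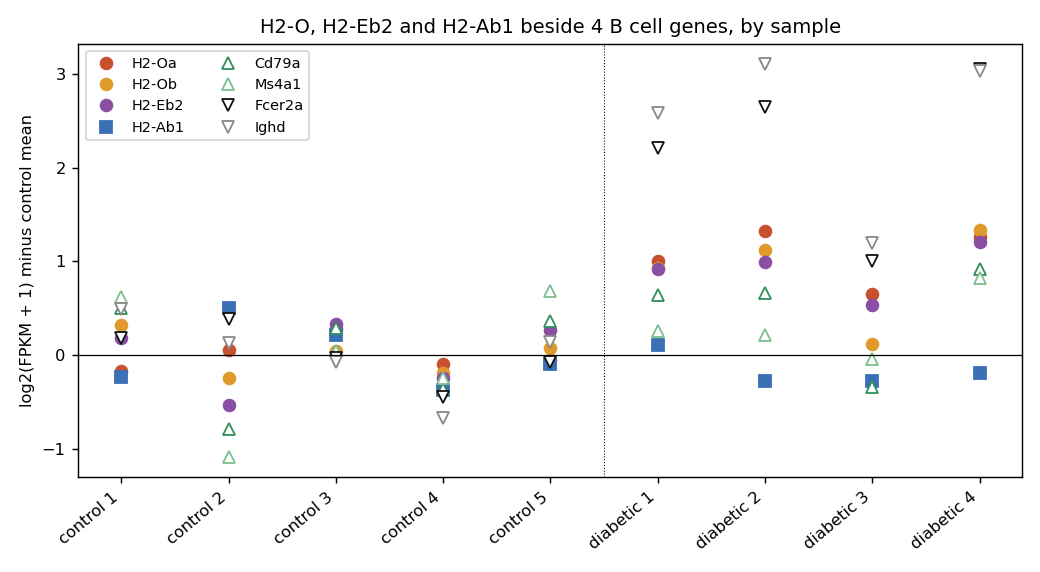
Log2(FPKM + 1) minus the control mean (vertical axis) in each of 9 samples (horizontal axis) for H2-Oa, H2-Ob, H2-Eb2 and H2-Ab1 (filled) and 4 B cell genes (open). In diabetic 3, H2-Oa stands at 0.65 and H2-Ob at 0.12. Of the B cell genes, Cd79a stands at -0.34, Ms4a1 at -0.041, Fcer2a at 1.0 and Ighd at 1.20.

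The lists of large and small macrophages of the cavity differed in direction. Over all tested genes, 2.68% were higher and 2.08% lower. Of 15 tested markers of large resident macrophages, which carry little class II, 14 had positive log2 fold changes, with a median of 0.38. Of these 15, 1 rose (Naip1, log2 fold change 0.56, SE 0.14, adjusted p = 0.047) and 0 fell. Their summed level was 1493 to 6954 FPKM in control and 4186 to 9913 FPKM in diabetic samples, and its lowest control value without control 2 was 3849. Most of that sum was Saa3, an acute-phase protein, at 1025 to 6579 FPKM in control and 3863 to 9307 FPKM in diabetic samples, whose difference did not pass (adjusted p = 0.48). Of 10 markers of small peritoneal macrophages, which are rich in class II, 9 had negative log2 fold changes, with a median of -0.31. Of these 10, 0 rose and 2 fell. Those were Mrc1, the mannose receptor (log2 fold change -1.13, SE 0.25, adjusted p = 0.033), and Retnla (log2 fold change -2.59, SE 0.61, adjusted p = 0.043). The sum of the small macrophage list was 1161 to 5907 FPKM in control and 729 to 1183 FPKM in diabetic samples. Its highest control value is that of control 2, of which 4683 FPKM was Retnla, and without control 2 the highest was 2115. When single samples were left out, Mrc1 passed in 1 and Retnla in 3 of 9 fits. Of 10 tested monocyte markers 2 rose and 0 fell, Ms4a4c among them (log2 fold change 1.56, SE 0.20, adjusted p = 0.0044). Other calls that single samples decided were those of Tap1 (7 of 9 fits passed), Icosl (7), Cd28 (6), Pou2af1 (5), Slc39a7 and Batf3 (3 each) and Naip1 (2). The relation of these lists to the class II levels was not tested.

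The genes whose profile was most like that of 3 of the 8 were listed by the Pearson correlation of their deviations from the group means over 9 samples. This is a description, and the points share libraries and their depth. For H2-Ab1 the nearest were H2-Eb1, Cyc1, Nme6, B3galt4 and Abcf1, at 0.96 to 0.99, and at 0.93 to 0.97 without control 2. For Ciita they were Smad2, Zfyve26, Arhgef11, Pip5k1c and Hlcs, at 0.93 to 0.97. For H2-Ob they were Clcf1, Dhrs13, Ppp1r16b, Ablim1 and Gimap7, at 0.98, and at 0.98 to 0.99 without control 2. H2-Ob in diabetic 3 stood 0.12 above its control mean on the log2(FPKM + 1) scale, against 0.92 to 1.34 in the other diabetic samples. Likeness without diabetic 3 was not computed, so how far these correlations rest on it is not known. Ablim1 and Gimap7 also rose in diabetic samples (log2 fold changes 1.20 and 1.25; adjusted p = 0.027 and 0.017). None of the nearest genes of H2-Ob was a classical class II chain.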

How the data were processed

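The authors deposited 1 table of FPKM values for 41096 genes in 9 samples, 1 column each, with a gene length, position and name, per the file headers. GRCm38 and mm10 are named in the submitters' processing notes. The identifiers are those of the C57BL/6NJ gene set, so positions are given as the table has them. Which aligner, counter and strand setting were used is not given in the sources used here. FPKM times gene length gave whole reads (100% within 0.05), and the values are already scaled between samples.

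Members were matched by gene name. For other lists, 328 further rows took a name from the table's UniProt match. limma 3.58.1 in R 4.3.3 (trend and robust moderation) was fitted on log2(FPKM + 1) over all 9 samples for the genes that reached an FPKM of 1 in 4 or more samples; this scale understates the change of low genes. Tests were two-sided, with Benjamini-Hochberg adjustment over all genes, and the fit was tested on simulated data. From each list up to 4 passing genes were named in order of p, or 2 with the smallest p. Some list genes that this rule names are counted but not reported by name here. The exact permutation test planned for members under the filter had no member to test. Genes, lists and tests were chosen with earlier results of these data known. The alternatives were other pseudocounts, filters, scalings, weights and moderation, a replicate block, voom on recovered reads, and leaving out each sample.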

Additional observations from a re-analysis of the deposited data

How the results depend on the processing

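The 20 alternatives include rescaling by median ratio, which is void as a check. H2-Aa, H2-Ab1, Cd74 and H2-DMa kept their direction and did not pass under any of the 20 alternatives. H2-Oa passed under 19 of them, the void rescaling included. Replicate numbers did not pair the samples (correlations of same-numbered samples -0.26 to 0.16 over 4 pairs). With the replicate block H2-Oa had a log2 fold change of 1.04 (adjusted p = 0.063), so 0 of the 8 genes passed, and 45 genes were higher and 17 lower. H2-Ob passed, so that 2 genes rose, with the filter at an FPKM of 5 (log2 fold change 0.87, adjusted p = 0.049), with array weights (0.89, adjusted p = 0.0097), and with voom under the deposited scaling, an alternative chosen after seeing the data (0.89, adjusted p = 0.035). Leaving out 1 sample gave log2 fold changes for H2-Ob of 0.72 to 1.13 and 1 to 2 genes that rose. H2-Eb1 turned positive with array weights (0.14) and with voom on recovered reads (0.037), and ranged from -0.088 to 0.11 when 1 sample was left out. Ciita ranged from -0.21 to 0.060. H2-Eb2 lost its call under 7 alternatives.

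Against 300 higher and 233 lower genes, no filter on low values gave 129 and 54, a filter at 5 gave 187 and 185, and array weights gave 677 and 627. Leaving out 1 sample gave 97 to 619 higher and 49 to 551 lower genes, the most without diabetic 3 and the fewest without diabetic 4. Rescaling by median ratio left every sample's factor equal and is void as a check. Fits that leave out a sample keep the genes of the full fit. The class II chains and Cd74 had 22991 or more reads per sample, while Ciita (499 to 1035) and H2-Oa (257 to 763) rest on fewer.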
